A study of Mus musculus with 23 samples.

Results

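The neutrophil granule genes described here are S100a8, S100a9, Mpo, Elane, Ltf, Camp, Ngp, Lcn2, Mmp8 and Retnlg, 10 of the 54347 genes in the deposited table of 23 RNA-seq libraries. They were chosen by name on earlier results of these data, in which the CPM levels of S100a8 and S100a9 in sorted Sox2-negative cells stood far above those in Sox2-positive cells and differed between batches. The difference between the populations, and the batch difference of S100a8 and S100a9, are therefore given as a description without a test. Tests concern the difference between batches within the Sox2-negative libraries for the other 8 genes. All 10 genes passed the filter on low counts, and all 10 did so only through Sox2-negative libraries. Each also reached the filter's minimum without the batch A Sox2-negative libraries.

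Every library came from the labial cervical loop, the epithelial fold at the growing end of the lower incisor, of Sox2-GFP mice at postnatal day 2, and no treatment is named. In this line the endogenous Sox2 promoter drives green fluorescent protein, and enzyme-dissociated cells were sorted on it into Sox2-positive cells, called dental epithelial stem cells by the submitters, and Sox2-negative cells. Sox2-negative cells gave 6 libraries in batch A and 4 in batch B, and Sox2-positive cells gave 6 and 7. Batch A and batch B were done on separate days with different mice, so day, mice and any change in dissection or sorting cannot be told apart. The labels do not say whether libraries of 1 batch came from different mice, so p-values measure the spread between libraries, which may be technical. The Sox2-negative gate held every sorted cell without the reporter, and no selection for or against blood cells is described in the labels.

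Neutrophils are short-lived white blood cells that are made in the bone marrow and kill microbes with proteins stored in granules. The granules are filled in order as the cell matures: primary (azurophil) granules with Mpo and Elane at the promyelocyte stage, specific granules with Ltf, Camp, Ngp and Lcn2 at the myelocyte stage, and gelatinase granules later still. The RNA of each granule protein is made mainly while its granule forms, whereas S100a8 and S100a9, which encode the calcium-binding pair of calprotectin, remain abundant in the cytosol, and Retnlg, a resistin-like secreted protein, is abundant in mature mouse neutrophils.

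The start regions of 6 of the genes are shown because the batch difference given further on was large for Camp and Ngp, smaller for Elane, S100a8 and Mpo, and not detectable for Retnlg. Each runs from 250 bases before to 50 bases after the annotated start, as RefSeq gives it on GRCm38.p6, and RefSeq held an entry for 10 of the 10 genes. Capitals mark a match on either strand to AGGAAGT, the core that PU.1 binds, to TTNNGCAA, a form of the C/EBP site, or to TATAAA, the TATA element. These motifs were picked after the sequences had been looked at.
Camp chr9:109849407-109849706 minus strand: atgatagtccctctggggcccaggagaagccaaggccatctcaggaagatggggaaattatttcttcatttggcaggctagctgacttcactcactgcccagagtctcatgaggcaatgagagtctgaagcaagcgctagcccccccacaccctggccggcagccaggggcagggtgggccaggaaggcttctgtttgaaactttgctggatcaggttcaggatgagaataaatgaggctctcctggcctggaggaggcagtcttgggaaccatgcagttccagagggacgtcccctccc
Ngp chr9:110419558-110419857 plus strand: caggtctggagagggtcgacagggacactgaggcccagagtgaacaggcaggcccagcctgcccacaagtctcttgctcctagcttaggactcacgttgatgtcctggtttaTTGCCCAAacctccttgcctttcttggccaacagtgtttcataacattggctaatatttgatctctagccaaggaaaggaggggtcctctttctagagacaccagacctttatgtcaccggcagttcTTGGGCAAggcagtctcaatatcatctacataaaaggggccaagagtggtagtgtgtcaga
Elane chr10:79886062-79886361 plus strand: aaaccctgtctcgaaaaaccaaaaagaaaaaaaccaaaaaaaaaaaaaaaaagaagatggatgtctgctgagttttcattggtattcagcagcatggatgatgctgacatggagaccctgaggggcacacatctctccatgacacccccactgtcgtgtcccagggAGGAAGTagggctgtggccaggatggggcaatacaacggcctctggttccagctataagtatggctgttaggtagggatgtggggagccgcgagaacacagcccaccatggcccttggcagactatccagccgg
S100a8 chr3:90668821-90669120 plus strand: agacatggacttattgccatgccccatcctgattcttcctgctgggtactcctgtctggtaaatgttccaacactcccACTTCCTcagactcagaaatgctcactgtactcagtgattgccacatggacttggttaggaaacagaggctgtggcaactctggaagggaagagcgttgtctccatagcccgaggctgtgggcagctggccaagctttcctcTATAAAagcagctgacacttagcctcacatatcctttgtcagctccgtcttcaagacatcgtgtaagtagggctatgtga
Mpo chr11:87793534-87793833 plus strand: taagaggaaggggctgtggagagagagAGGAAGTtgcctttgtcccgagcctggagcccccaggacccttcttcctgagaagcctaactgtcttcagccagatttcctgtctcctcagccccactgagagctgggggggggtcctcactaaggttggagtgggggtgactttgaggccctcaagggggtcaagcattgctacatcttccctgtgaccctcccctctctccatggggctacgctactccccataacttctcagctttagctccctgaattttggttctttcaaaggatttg
Retnlg chr16:48872358-48872657 plus strand: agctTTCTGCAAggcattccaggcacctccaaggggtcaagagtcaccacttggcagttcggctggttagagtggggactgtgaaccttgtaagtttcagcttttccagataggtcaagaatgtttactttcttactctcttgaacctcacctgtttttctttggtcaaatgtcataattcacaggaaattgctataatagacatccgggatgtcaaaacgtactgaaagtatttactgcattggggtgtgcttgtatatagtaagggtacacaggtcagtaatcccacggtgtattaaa

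AGGAAGT was found in 4 of the 10 windows, those of S100a8, Mmp8, Elane and Mpo, and in 9.27% of all 32544 RefSeq windows of this length. TTNNGCAA was found in 6 of the 10 (S100a9, Ltf, Ngp, Lcn2, Mmp8 and Retnlg) and in 10.8% of all windows. TATAAA was found in 3 of the 10 (S100a8, S100a9 and Mmp8) and in 13.6% of all windows. The match began 30 bases before the start of S100a8 and at the first transcribed base of S100a9. In Mmp8 it lay on the opposite strand, beginning 3 bases before the start. Ngp held a pair of TTNNGCAA matches, beginning 138 and 11 bases before its start, while the Camp window held none of these letters. The AGGAAGT match began 84 bases before the start of Elane and 223 bases before that of Mpo. A match describes the letters in the window and not a bound site.

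Several of the genes lie near each other in the mouse genome (GRCm38, GENCODE M21). S100a8 and S100a9 stand on chromosome 3 with 22.6 kb between them. Camp, Ngp and Ltf follow each other on chromosome 9, with 570.1 kb between Camp and Ngp and 596.3 kb between Ngp and Ltf. Mmp8 is on the same chromosome, 102278.9 kb from Camp. Elane, Mpo, Lcn2 and Retnlg are on chromosomes 10, 11, 2 and 16. Only Mpo overlaps another annotated gene, the antisense Gm11505.

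Depth ranged from 3.71 to 4.83 megacounts (M, the summed estimated count of a library) in batch A Sox2-negative, from 6.40 to 9.54 in batch B Sox2-negative, from 3.93 to 5.94 in batch A Sox2-positive and from 2.31 to 7.11 in batch B Sox2-positive. A value of 3 counts, taken as the floor that a count of 0 allows, equalled 0.357 to 1.30 CPM over the libraries and covers counting error only. CPM here are counts scaled to a common library total by TMM. Batch B libraries 1 and 2 of both populations stood apart in the number of genes with at least 1 count, at 21249 to 21524 in Sox2-negative and 20031 to 20392 in Sox2-positive cells, against 19111 to 19183 and 17369 to 19494 in the higher-numbered libraries, so results are also given without them. Sox2 itself matched the labels in direction: it ranged from 2.55 to 12.9 CPM in Sox2-positive libraries of batch A and from 13.3 to 20.3 CPM in those of batch B, against at most 0.250 and 1.14 CPM in the Sox2-negative libraries. Summed epithelial markers (Epcam, Cdh1, Krt14, Krt5, Trp63) reached 2510.2 to 4194 CPM over the Sox2-positive libraries and 138 to 347 CPM over the Sox2-negative ones.

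The granule genes were read almost only in the Sox2-negative libraries. Their summed level averaged 4518 ± 271 CPM over the 6 Sox2-negative libraries of batch A (SD), or 0.452% ± 0.0271 of the TMM-scaled counts. Over the 4 of batch B it was 689.8 ± 51.1 CPM, or 0.0690% ± 0.00511. Sox2-positive libraries summed to 1.58 ± 2.05 CPM in batch A (n = 6) and to 0.250 ± 0.353 CPM in batch B (n = 7). In bulk libraries, fewer neutrophils and less of these RNAs per cell cannot be told apart.

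**Figure D1:**
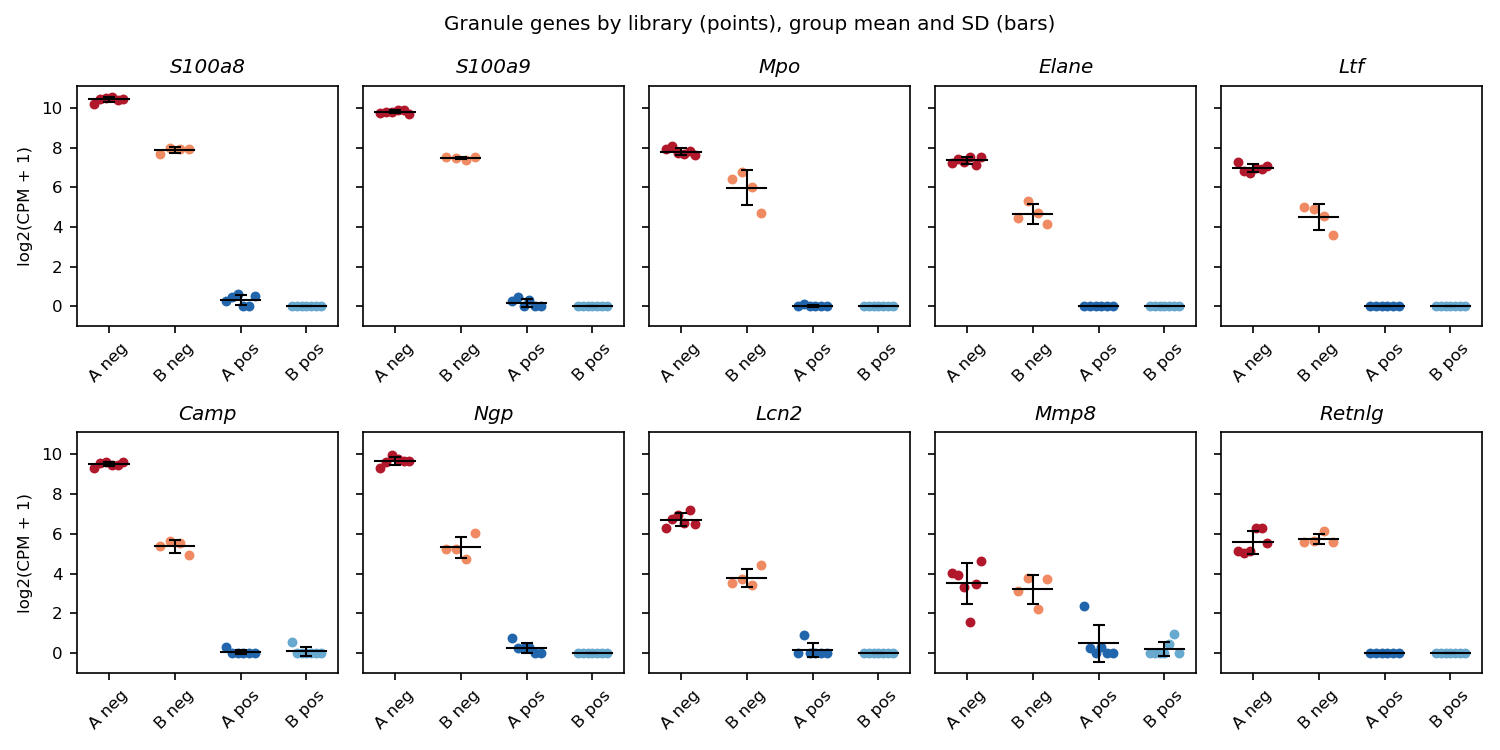
Level of each of the 10 granule genes in every library, as log2(CPM + 1) on the vertical axis, with 1 point per library and the mean and SD of each group as bars (A neg and B neg, Sox2-negative libraries of batches A and B; A pos and B pos, Sox2-positive). The Sox2-positive points lie at or near 0 in all panels, and the B neg points lie below the A neg points in 8 of the 10, with Mmp8 and Retnlg overlapping.

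Over the 13 Sox2-positive libraries, 20 of the 130 values were above 0. Of these, 17 of 60 stood in batch A and 3 of 70 in batch B. Elane, Ltf and Retnlg were at 0 in all 13 Sox2-positive libraries, and 8 of the 10 genes were at 0 in each of the batch B ones, the exceptions being Camp and Mmp8. The levels did not overlap between the populations for 9 of 10 genes in batch A and for 10 of 10 in batch B. Sox2-positive lay wholly below Sox2-negative for 14.3% of all tested genes in batch A and for 20.3% in batch B, and since the genes were chosen with this contrast in view, nothing is read from the count. The overlap in batch A was that of Mmp8, at 4.14 CPM (18.7 counts) in Sox2-positive library 1 and as low as 1.99 CPM in Sox2-negative library 4.

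Where every Sox2-positive library of a batch was at 0, the fold difference is a lower bound, set against the largest floor of 3 counts in a single library of that group, 0.712 CPM in batch A against 1.30 in batch B. In batch A, Elane was at least 230.1-fold, Ltf at least 175-fold and Retnlg at least 70.4-fold higher in Sox2-negative libraries. In batch B the bound was at least 181-fold for S100a8, 137-fold for S100a9, 54.4-fold for Mpo and 41.2-fold for Retnlg. It was lowest for Lcn2, at least 10.2-fold. The highest single Sox2-positive values of the other genes were 0.522 CPM for S100a8, 0.400 CPM for S100a9 and 0.669 CPM for Ngp, all in batch A. None of these 3 exceeded the largest floor of that batch, while Lcn2 reached 0.847 CPM (4.73 counts) in 1 library.

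Most granule genes were lower in batch B than in batch A among Sox2-negative libraries. In edgeR's quasi-likelihood test with Benjamini-Hochberg adjustment over 17190 genes, 6 of the 8 genes other than S100a8 and S100a9 were lower in batch B at an adjusted p under 0.05, none was higher, and Mmp8 and Retnlg did not pass. Over all tested genes 11.2% were called, 5.35% lower and 5.85% higher. That is 919 lower and 1005 higher, a split that became 1388 lower and 661 higher under total-count scaling, which shifted the median of all genes by -0.15. These 6 genes, and also S100a8 and S100a9, had every batch B value below every batch A value, which held for 4.35% of all tested genes. The median log2 fold change, batch B minus batch A, was -2.55 over the 8 genes and -0.00 over all tested genes. The summed level of all 10 was 6.55-fold higher in batch A. That sum includes S100a8 and S100a9, so it is given as a description. Without batch B libraries 1 and 2, 6 of the 8 were again called lower, beside 349 lower and 405 higher of 18629 tested genes. The log2 fold change of Mpo went from -1.67 to -2.32 (edgeR adjusted p 0.000479). Those of the other 9 granule genes moved by at most 0.49. In the next paragraphs batch A Sox2-negative values are given as the lowest, median and highest of 6 libraries and those of batch B for libraries 1 to 4 in order.

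S100a8 and S100a9, the subunits of calprotectin, had the highest levels of the 10 per transcript length in each batch. S100a8 (ENSMUSG00000056054.9, chr3:90668978-90670035, plus strand) was at 1166, 1412 and 1490.0 CPM in batch A and at 203, 248, 243 and 244 CPM in batch B. Its mean was 1384 ± 115 CPM (SD, n = 6) against 234 ± 21.3 CPM (n = 4), 5.90-fold higher in batch A. All 4 batch B libraries lay below all 6 of batch A. The edgeR log2 fold change was -2.56 (SE 0.16, 95% interval -2.90 to -2.22), given as a description. S100a9 (ENSMUSG00000056071.12, chr3:90692632-90695721, minus strand) was at 833, 891 and 968 CPM in batch A and at 182, 180.2, 168 and 181 CPM in batch B. Again all batch B libraries were below all batch A libraries, with means of 902 ± 51.9 and 178 ± 6.78 CPM. The edgeR log2 fold change was -2.34 (SE 0.16, 95% interval -2.67 to -2.01), again as a description. The ratio of S100a9 to S100a8 counts within a library was 0.589 to 0.747 in batch A and 0.689 to 0.899 in batch B, so its ranges overlapped.

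The primary granule genes were both lower in batch B. Mpo (ENSMUSG00000009350.13, chr11:87793581-87804413, plus strand), which encodes the heme enzyme that makes hypochlorous acid, was at 196, 217 and 269 CPM in batch A and at 85.3, 108, 63.4 and 25.6 CPM in batch B. Batch B library 4 stood lowest and library 2 highest, and none reached the lowest batch A library. With means of 224 ± 28.3 and 70.6 ± 35.1 CPM, the edgeR log2 fold change was -1.67 (SE 0.29, adjusted p 0.000650, 95% interval -2.27 to -1.06), the smallest of the 6 that passed. Elane (ENSMUSG00000020125.7, chr10:79886247-79888215, plus strand), the neutrophil elastase gene, was at 138, 162 and 187 CPM in batch A and at 20.7, 38.5, 25.2 and 16.8 CPM in batch B. Its groups were far apart, with means of 164 ± 20.5 and 25.3 ± 9.46 CPM. The edgeR log2 fold change was -2.69 (SE 0.28, adjusted p 1.02e-05, 95% interval -3.28 to -2.10), or 6.47-fold higher in batch A. The count ratio of Mpo to S100a8 was 0.136 to 0.211 in batch A and 0.105 to 0.435 in batch B, and that of Elane to S100a8 was 0.101 to 0.131 and 0.0691 to 0.155. Both ratios overlapped between the batches.

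Among the specific granule genes (Ltf, Camp, Ngp, Lcn2 and Mmp8), Camp and Ngp had the largest batch differences of the 10. Camp (ENSMUSG00000038357.10, chr9:109847379-109849617, minus strand), which encodes the cathelicidin antimicrobial peptide, was at 645, 739 and 793 CPM in batch A and at 41.2, 48.7, 45 and 29.3 CPM in batch B. Every batch A library was more than 10 times the highest batch B library, and the means were 734 ± 53.1 and 41.1 ± 8.42 CPM, 17.9-fold apart. The edgeR log2 fold change was -4.16 (SE 0.23, adjusted p 6.95e-13, 95% interval -4.63 to -3.69). Ngp (ENSMUSG00000032484.8, chr9:110419747-110423012, plus strand), neutrophilic granule protein, a relative of the cathelicidins, was at 640.3, 806 and 989 CPM in batch A and at 37.2, 37.4, 26.0 and 64.8 CPM in batch B. Batch B library 4 was the highest for Ngp and the lowest for Camp, and no batch B value came near those of batch A. The means of Ngp were 816 ± 113 and 41.4 ± 16.5 CPM, 19.7-fold apart, and the edgeR log2 fold change was -4.30 (SE 0.26, adjusted p 5.85e-10, 95% interval -4.85 to -3.76).

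Within each library Camp and Ngp also stood lower relative to S100a8 in batch B. The Camp to S100a8 count ratio was 0.481 to 0.561 over the batch A libraries and 0.12 to 0.203 over the batch B libraries. That of Ngp to S100a8 was 0.549 to 0.680 and 0.107 to 0.266. Neither ratio overlapped between the batches, unlike those of Mpo, Elane and S100a9. S100a8 was chosen with its batch difference in view, so all ratios to it are a description. The share of other genes whose ratio to S100a8 would not overlap was not taken. The Ngp to Camp ratio itself was 0.993 to 1.28 in batch A and 0.578 to 2.21 in batch B, wider in batch B and overlapping. The 95% intervals of Camp and Ngp lay wholly below those of S100a8, S100a9, Elane, Ltf and Mpo. Neighbours in the order of log2 fold changes, Ngp, Camp, Lcn2, Elane, S100a8, Ltf, S100a9, Mpo, Mmp8 and Retnlg, all had overlapping intervals, and differences between genes in the size of the change were not tested.

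Ltf and Lcn2, also of the specific granules, lay between these and Mpo. Ltf (ENSMUSG00000032496.7, chr9:111019271-111042767, plus strand), the gene of the iron-binding protein lactoferrin, was at 103, 123 and 154 CPM in batch A and at 31.5, 29.2, 22.2 and 11.2 CPM in batch B. Its batch B libraries stayed below the batch A range, at means of 125 ± 17.9 and 23.5 ± 9.14 CPM. The edgeR log2 fold change was -2.40 (SE 0.32, adjusted p 0.000123, 95% interval -3.07 to -1.73). Lcn2 (ENSMUSG00000026822.14, chr2:32384633-32388252, minus strand), whose product captures bacterial siderophores, was at 78.1, 99.9 and 146 CPM in batch A and at 10.4, 12.3, 9.71 and 20.6 CPM in batch B. Library 4 of batch B was again the highest of its group, and the groups did not overlap (means 106 ± 25.2 and 13.3 ± 5.02 CPM). For Lcn2 the edgeR log2 fold change was -3.0 (SE 0.47, adjusted p 0.000204, 95% interval -3.98 to -2.02), or 8.0-fold higher in batch A.

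Mmp8 and Retnlg did not follow the other 8 genes. Mmp8 (ENSMUSG00000005800.3, chr9:7558456-7568485, plus strand), neutrophil collagenase, also listed with the specific granules, was the lowest of the 10 per transcript length, at 1.99, 12.1 and 23.9 CPM in batch A and at 7.67, 12.7, 3.64 and 12.2 CPM in batch B. The batch B values lay inside the batch A range, and the edgeR log2 fold change was -0.46 (SE 1.00, adjusted p 0.834, 95% interval -2.51 to 1.59). That interval reaches from a fall larger than the estimate for S100a9 to a rise, so a difference was not detectable at this spread. Retnlg (ENSMUSG00000022651.6, chr16:48872621-48874496, plus strand) was at 31.5, 39.8 and 78.4 CPM in batch A and at 47.3, 49.7, 70.0 and 46.8 CPM in batch B, with means of 50.1 ± 21.9 and 53.4 ± 11.1 CPM. In batch A, libraries 4 and 5 were at 77.1 and 78.4 CPM and 3 of the others between 31.5 and 34.4 CPM, and the batch B values fell inside that spread. The edgeR log2 fold change of Retnlg was 0.09 (SE 0.36, adjusted p 0.914, 95% interval -0.68 to 0.86), an interval whose lower bound is above the upper bounds of the 6 genes called lower. Its sign turned under total-count scaling, so no direction is given.

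**Figure D2:**
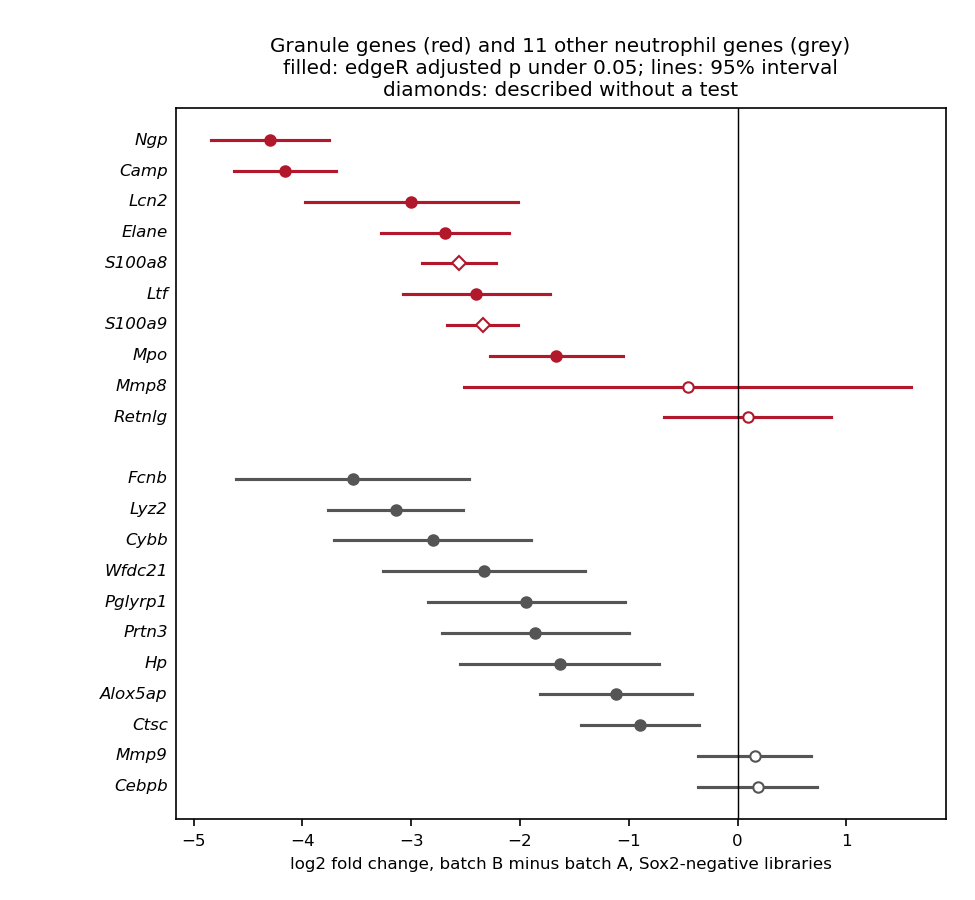
Log2 fold change, batch B minus batch A, within Sox2-negative libraries (horizontal axis) for the 10 granule genes in red and 11 of the named other neutrophil genes in grey, without Chil3, with 95% intervals as lines and filled points where the edgeR adjusted p was under 0.05. S100a8 and S100a9 are open diamonds, described without a test. Ngp (-4.30) and Camp (-4.16) lie lowest of the granule genes, and the intervals of Mmp8, Retnlg, Mmp9 and Cebpb cross 0.

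The make-up of the granule RNA is described by batch. S100a8 and S100a9, chosen with their batch difference in view, fill most of the sum behind each share. Levels of different genes were compared as CPM per kb of the longest coding transcript, and each gene was then expressed as a share of the sum over the 10. S100a8 took 42.3% ± 1.08 in batch A and 44.6% ± 2.33 in batch B, and S100a9 took 25.9% ± 1.67 and 31.7% ± 2.3. Camp went from 14.4% ± 0.794 to 5.01% ± 0.952, and Ngp from 9.91% ± 0.894 to 3.14% ± 1.27. Retnlg went from 1.25% ± 0.507 to 8.34% ± 1.67 (SD, n = 6 and 4), ranking 7 of the 10 in batch A and 3 in batch B, while its own level stood at 84.5 and 90.1 CPM per kb. The ranges over libraries did not overlap between batches for S100a9, Camp, Ngp and Retnlg, and nothing is read from this. Elane took 2.48% and 2.36% and Ltf 0.682% and 0.797%. Since shares sum to a whole, a gain by one gene follows from losses by others, and no test was run on them.

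**Figure D3:**
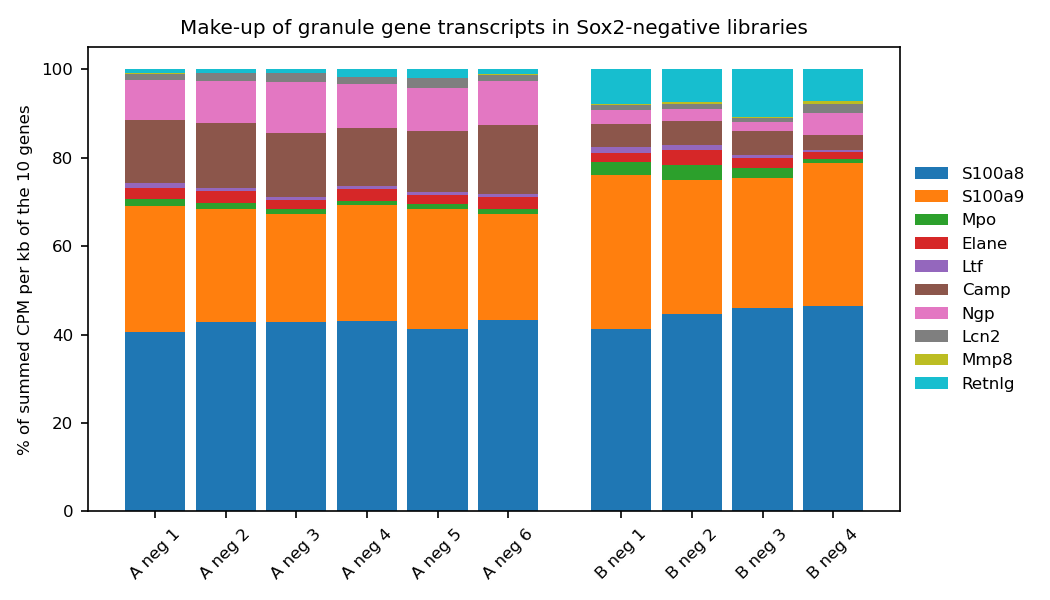
Share of each granule gene in the summed CPM per kb of the 10 genes (vertical axis, percent) in each Sox2-negative library, with batch A libraries 1 to 6 on the left and batch B libraries 1 to 4 on the right. S100a8 and S100a9 fill most of every bar, the Camp and Ngp segments are smaller in batch B, and the Retnlg segment is larger there, at 8.34% against 1.25%.

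Of the count ratios taken, those of Ngp and Camp to Retnlg showed the widest separation. Ngp counts were 10.3 to 29.1 times those of Retnlg over the batch A libraries and 0.372 to 1.39 times over the batch B libraries. Camp counts were 9.16 to 24.2 times and 0.626 to 0.980 times those of Retnlg. The Retnlg to S100a8 ratio was 0.0223 to 0.0572 in batch A and 0.192 to 0.288 in batch B, again with no overlap. These ratios are taken within a library and do not depend on its scaling. The pairs set the genes with the largest batch differences against a gene with none detectable. Their separation therefore follows from the levels already given and adds no support.

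A wider list of 46 other neutrophil genes, of which 39 passed the filter, was read in the same fits. For Sox2-positive minus Sox2-negative with batch as a covariate, 31 of the 39 reached the filter's minimum only through Sox2-negative libraries and so had to differ. Of the 8 that also reached it in Sox2-positive libraries, 7 were called lower and 0 higher, beside 57.5% of all tested genes called, 32.5% lower and 24.9% higher. The gene that did not pass was Cebpd, a C/EBP factor of many cell types, at -0.32 (edgeR adjusted p 0.154), named after its value was seen. Mmp9, which encodes gelatinase B, was at 390.3 to 590.3 CPM in Sox2-negative libraries and at most 2.67 CPM in Sox2-positive ones. Lyz2, lysozyme, had a log2 fold change of -7.00 (adjusted p 7.80e-14). Prtn3, proteinase 3, was at -4.22 (adjusted p 6.09e-09), with 3.8 to 7.43 CPM in Sox2-positive libraries of batch B. Smaller differences were those of Ctsc, the protease that activates granule serine proteases (-0.88, adjusted p 9.08e-05), and Cebpb (-1.58, adjusted p 3.15e-08), both expressed in many tissues.

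Not every neutrophil gene was near 0 in Sox2-positive libraries. Cxcr2, the receptor for neutrophil-attracting chemokines, was at 4.24 to 9.5 CPM in Sox2-positive libraries of batch A and at 6.38 to 12.8 CPM in those of batch B. Bpi, bactericidal permeability-increasing protein, was at 0 in all 10 Sox2-negative libraries and at up to 1.5 and 1.55 CPM in the Sox2-positive libraries of batches A and B, and it did not pass the filter. Both were picked after their values were seen.

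Within the Sox2-negative libraries, 16 of the 39 other neutrophil genes passed the filter only through batch A, so nothing is read from their batch calls. Of the other 23, 11 were called lower in batch B and 0 higher, beside 5.35% of all tested genes called lower and 5.85% higher. By list, those called lower were 3 of 3 genes listed with the primary granules, namely Prtn3, Ctsc and Serpinb1a. They were 6 of 11 listed with the specific and gelatinase granules and 0 of 4 receptors and surface proteins. Also called lower were 1 of 1 cytosolic and effector gene and 1 of 4 granulocyte transcription factors. A list name does not give the place of each product in the cell. Over all 39 the calls were 17 lower and 0 higher, and without batch B libraries 1 and 2 the 17 fell to 7. The 17 include 6 of the genes that passed only through batch A. In the same step, genes called lower among all tested went from 919 of 17190 to 349 of 18629. The 12 genes named from the list of other neutrophil genes were those with the highest mean CPM in Sox2-negative libraries.

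Prtn3, encoded beside Elane in the genome, averaged 133 CPM in batch A against 36.7 in batch B, log2 fold change -1.86 (SE 0.42, adjusted p 0.00384). Ctsc averaged 97.1 CPM in batch A against 52.2 in batch B, log2 fold change -0.90 (SE 0.27, adjusted p 0.0276). Both log2 fold changes were smaller than that of Elane, and the difference between the genes was not tested. Ctsg, cathepsin G, the primary granule protease named after its value was seen, was at means of 42.9 and 3.50 CPM and is among the genes that passed the filter only through batch A. Without batch B libraries 1 and 2, which leaves 2 batch B Sox2-negative libraries, the adjusted p of Prtn3 was 0.0622 and that of Ctsc 0.298. Ctsc lost its call in 8 of 32 alternatives in all.

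Of the specific and gelatinase granule genes, Lyz2 averaged 623 CPM in batch A against 70.4 in batch B, log2 fold change -3.14 (SE 0.30, adjusted p 5.35e-08). Lyz2 is also expressed by macrophages. Fcnb, a ficolin of the lectin complement pathway, averaged 70.7 CPM in batch A against 6.12 in batch B, log2 fold change -3.54 (SE 0.51, adjusted p 9.23e-05). Cybb, the catalytic subunit of the phagocyte oxidase, averaged 68.7 CPM in batch A against 9.86 in batch B, log2 fold change -2.80 (SE 0.44, adjusted p 0.000162). Pglyrp1, Hp (haptoglobin) and Wfdc21 were also lower in batch B (log2 fold change -1.94, SE 0.44, adjusted p 0.00409 for Pglyrp1, log2 fold change -1.63, SE 0.44, adjusted p 0.0164 for Hp, log2 fold change -2.33, SE 0.44, adjusted p 0.00252 for Wfdc21), and none of the 3 passed without batch B libraries 1 and 2 (adjusted p 0.0718, 0.158 and 0.0623).

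Chil3, a chitinase-like secreted protein, passed the filter only through batch A. It was at 23.4 to 124 CPM over the batch A Sox2-negative libraries, at 0 in 3 of the 4 batch B ones and at 0.112 CPM (0.942 counts) in the remaining one. With batch B at the floor no fold is given, and reads may be shared with close copies of Chil3. Mmp9, by contrast, averaged 476 CPM in batch A against 530.0 in batch B, log2 fold change 0.16 (SE 0.25, adjusted p 0.763). Its product is stored in gelatinase granules but is also made by osteoclasts. The osteoclast genes Acp5 and Ctsk, picked after their values were seen, were at 206 to 314 and 353 to 524 CPM in batch A. Both were lower in batch B, at 52.2 to 92.0 and 197 to 247 CPM. The part of osteoclasts in the level of Mmp9 was not tested.

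Receptors and surface proteins of neutrophils went both ways in their estimates, with 5 of the 9 tested below 0 and 4 above. Csf3r, the G-CSF receptor, was at 12.6 ± 7.33 CPM in batch A against 19.6 ± 3.26 in batch B (log2 fold change 0.65, adjusted p 0.608). Cxcr2 was at 21.3 ± 9.35 and 27.5 ± 12 CPM (log2 fold change 0.37, adjusted p 0.576). The groups overlapped for both genes, and a p that misses the threshold does not show equal levels. Fcgr3, an IgG receptor shared with macrophages, averaged 20.8 CPM in batch A against 5.33 in batch B, log2 fold change -1.95 (SE 0.92, adjusted p 0.180). Trem3, Fpr2 and Ccrl2 passed the filter only through batch A, and their means were 16.7 and 2.18, 14.2 and 3.82, and 4.11 and 0.778 CPM. Clec4d, which passed in that way too, was at 4.61 and 6.53 CPM. Ly6g, the surface protein used to sort mouse neutrophils, likewise passed only through batch A, at 5.31 to 14.4 CPM there against 0 to 0.410 in batch B, with 2 of the 4 batch B libraries at 0. Ly6g belongs to a family of close copies, and its counts are uncertain for that reason. These 8 were picked after their values were seen. Of the remaining 12, Alox5ap, which serves leukotriene synthesis, averaged 65.4 CPM in batch A against 30.2 in batch B, log2 fold change -1.11 (SE 0.34, adjusted p 0.0345), and lost its call in 10 of 32 alternatives. Cebpb averaged 28.1 CPM in batch A against 32.0 in batch B, log2 fold change 0.19 (SE 0.27, adjusted p 0.724).

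Pearson r over the 23 libraries with the mean log2 CPM of the 10 granule genes was taken for every other tested gene. Highest were BC100530 (r 0.999), Tyrobp (0.999), Gpihbp1 (0.997), Cdh5 (0.997), Cd52 (0.996), Srgn (0.996), Ncf4 (0.996) and Stfa2l1 (0.995). None of the 46 other neutrophil genes was among them. BC100530 averaged 377 CPM in batch A against 89.1 CPM in batch B among Sox2-negative libraries, and Tyrobp, a signalling adaptor of myeloid cells, 193 and 46.3 CPM. BC100530 and Stfa2l1 belong to the stefin A family of close copies, so their reads are uncertain. Cd52 is a surface glycoprotein of leukocytes, Srgn the proteoglycan of secretory granules in blood cells, and Ncf4 a cytosolic subunit of the phagocyte oxidase. Cdh5 and Gpihbp1 are endothelial genes, at 187 and 97.5 CPM in batch A and 44.1 and 21.1 CPM in batch B. The points share libraries and fall into separate groups by population and batch, so r describes group levels, and no p is given.

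Marker lists of cells that the Sox2-negative gate could hold also moved between the batches. The common leukocyte list does not set neutrophils apart from other leukocytes. Common leukocyte genes summed to 615 to 765 CPM over the Sox2-negative libraries of batch A and to 177 to 259.8 CPM over those of batch B (3.13-fold higher in batch A, 4 of 6 tested genes called lower in batch B). Macrophage genes summed to 238 to 356 and 61.9 to 137 CPM (2.93-fold, 2 of 7 called). Fcer1a, of the mast cell list, was at 0 in every library. Mast cell genes summed to 837 to 1020.4 and 22.3 to 39.1 CPM (32.6-fold, 4 of 5 called). Cpa3 and Mcpt4, among those called, were at 0 in every Sox2-positive library and in 1 batch B Sox2-negative library. Both passed the filter only through batch A, so nothing is read from their calls. The sum of the 10 granule genes, at 6.55-fold, lay between these sums. It includes S100a8 and S100a9, chosen with their batch difference in view, so its place is a description. Lymphocyte genes summed to 44.9 to 78.1 and 15.5 to 40.7 CPM, with 0 of 4 called, and endothelial genes to 433 to 627 and 104 to 174 CPM, with 4 of 4 called lower.

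Erythroid genes moved the other way, from 985 to 1187 CPM in batch A to between 53611 and 62038 CPM in batch B (51.6-fold higher in batch B, 5 of 7 called higher and 0 lower). Epithelial markers were at 138 to 236 CPM in batch A and at 302 to 347 CPM in batch B, with 1 of 5 called higher. Mesenchymal markers were at 7790.0 to 8907 and 6895 to 9579.9 CPM, with 1 of 5 called higher. The part of any of these cells, or of red cells, in the batch difference of the granule genes was not tested. In Sox2-positive libraries the common leukocyte genes summed to at most 9.06 CPM and the macrophage genes to at most 12 CPM. There Cd53, C1qb, C1qc, Cpa3, Mcpt4, Ms4a2, Cd3e and Nkg7 were among the markers at 0 in all 13.

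**Figure D4:**
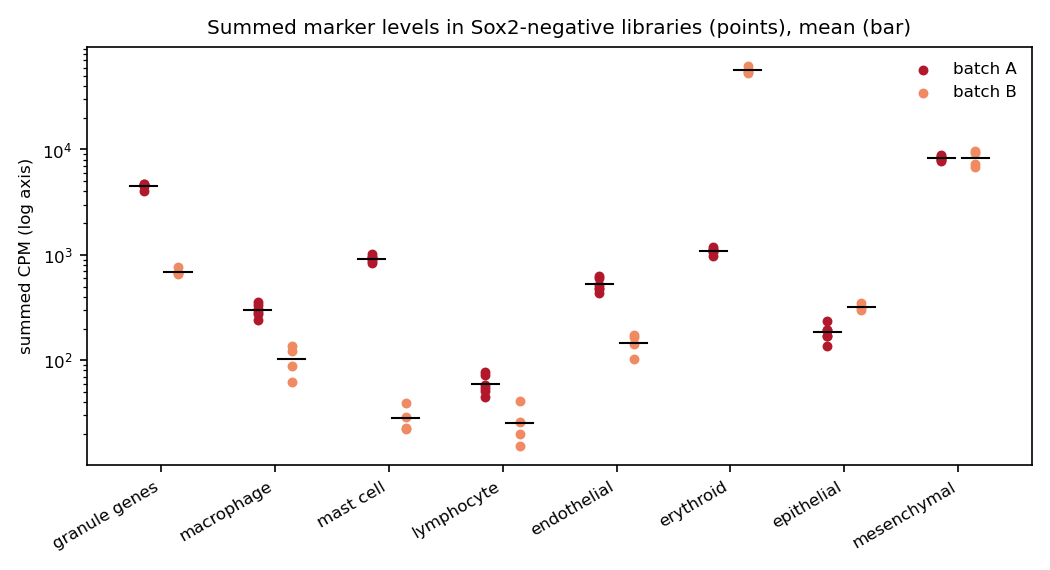
Summed CPM (log vertical axis) of the 10 granule genes and of 7 marker lists in each Sox2-negative library, batch A in dark red and batch B in orange, with a bar at the group mean. The granule, macrophage, mast cell, lymphocyte and endothelial sums are lower in batch B, the erythroid sum is 51.6-fold higher there, and the mesenchymal sums overlap.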

How the data were processed

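The deposited table holds expected counts (estimated counts) per gene for 23 libraries, which the authors made with tools that include FastQC, Trimmomatic and Salmon and with build mm10, per the submitters' processing notes. They are not whole and not scaled to depth. Versions and strand settings are not given in the sources used here. Gene identifiers were matched to GENCODE M21 without their version (54094 of 54347, 99.5%). The members and gene lists were chosen with earlier results of these data known.

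Counts were rounded and tested with edgeR 4.0.16 in R 4.3.3: TMM scaling, filterByExpr over the 4 groups with a minimum count of 10, the quasi-likelihood F test and Benjamini-Hochberg adjustment over 17190 genes, two-sided, called at an adjusted p under 0.05. A model of the 4 group means gave batch B minus batch A within Sox2-negative libraries, and a model of batch and population gave Sox2-positive minus Sox2-negative. The standard error was the absolute log2 fold change divided by the square root of F. The scripts were tested on simulated data. Library totals were taken over the filtered genes, and length as the longest coding transcript, since low values did not depend on length; both choices were made after values had been seen. Named were all 10 members, the 12 other neutrophil genes with the highest mean CPM in Sox2-negative libraries, the 8 genes closest in profile, and others said to be picked after their values were seen. Some single genes of the lists are not reported here. Alternatives were DESeq2 1.42.0, limma-voom (limma 3.58.1), other scalings and filters, subsets of libraries and a replicate block.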

Additional observations from a re-analysis of the deposited data

Results flagged for a closer look

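Among 29 sets of values of 1 granule gene in 1 group, 11 held a library whose gap to the nearest other exceeded Dixon's 95% critical value. In 4 of them 1 library was above 0 and all others at 0, which always exceeds it, so the number cannot be read against the 1 in 20 that chance gives. In Sox2-negative libraries, S100a8 was low in batch A library 1 (1166 CPM, next 1371) and in batch B library 1 (203 CPM, next 243), S100a9 was low in batch B library 3 (168 CPM, next 180.2), and Retnlg was high in that same library (70.0 CPM, next 49.7). None of these brought a group into or out of overlap with the other batch.

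The other 7 were single Sox2-positive libraries above 0 where most or all others were at or near 0. In batch A library 1 these were Camp at 0.234 CPM (1.05 counts), Ngp at 0.669 CPM (3.02 counts) and Mmp8 at 4.14 CPM (18.7 counts). In batch A library 2 they were Mpo at 0.0967 CPM (0.539 counts) and Lcn2 at 0.847 CPM (4.73 counts). In batch B they were Camp at 0.484 CPM in library 1 (2.87 counts) and Mmp8 at 0.906 CPM in library 6 (4.99 counts). Mmp8 in batch A library 1 was the value farthest above 3 counts.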

How the results depend on the processing

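The 6 tested granule genes lower in batch B were each called in all 32 alternatives, and S100a8 and S100a9, described only, were lower in each: DESeq2, limma-voom, RLE and total-count scaling, both filters, each library left out, Sox2-negative libraries alone, the replicate block, and no batch B libraries 1 and 2 (added after seeing the data). Retnlg, never called, turned sign under total-count scaling (-0.0489) and, with 1 library left out, ranged from -0.0477 (without batch B Sox2-negative library 3) to 0.265, also below 0 without batch A Sox2-negative library 1 (-0.0148) or 2 (-0.0116); the cause was not tested.

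Over all 39 other neutrophil genes, those called lower in batch B numbered 17, with 12 to 17 with 1 library left out. They numbered 12 with the replicate block and 7 without batch B libraries 1 and 2, which leaves 2 batch B Sox2-negative libraries. Among all tested genes, 919 of 17190 were called lower in the main fit. That number was 255 of 15201 with the replicate block and 349 of 18629 without batch B libraries 1 and 2. Those called lower in Sox2-positive cells, most of which had to differ to pass the filter, numbered 38, with 37 to 41 with 1 library left out, 36 with the replicate block and 21 in batch B alone, where 24 were tested. Same-numbered libraries did not deviate together (r -0.0212 to 0.0444 over 14 pairs), and 3 of the 14 correlated best with their own number.

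The summed granule level in batch B Sox2-negative libraries was 621 CPM under total-count scaling. With 1 library left out it was 665 to 702 CPM, against 4475 to 4623 CPM in batch A, 0.795 to 1.89 CPM in batch A Sox2-positive and 0.141 to 0.292 CPM in batch B Sox2-positive libraries. Over all genes, 1005 were higher and 919 lower in batch B with TMM, 886 and 1015 with RLE, 661 and 1388 with total-count scaling (median shift -0.15), 1143 and 1515 with DESeq2, and 1836 and 1277 with limma-voom (median shift 0.12). Depth limits the Sox2-positive values, most of which were under 3 counts.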
